A study of Homo sapiens with 9 samples.

Results

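The 10 genes described here are the 4 ID genes (ID1, ID2, ID3 and ID4), 4 genes whose products restrain BMP and TGF-beta signalling (SMAD6, SMAD7, BAMBI and SKIL), and 2 signal-carrying SMAD genes (SMAD1 and SMAD3). They were chosen by symbol as a pathway, with earlier results of these data known. All 10 of 10 were found among the 56809 genes of the count table and passed the filter on low counts, which left 14709 tested genes. RNA was sequenced from MDA-MB-468, an established line from a human breast adenocarcinoma, with 3 libraries in each of 3 groups. Control cells carried the empty pSicoR vector, a lentiviral vector for short hairpin RNAs, and the other groups carried pSicoR with the hairpin shLMO2-1 or the hairpin shLMO2-2. The labels give the vector of every group as a transfected plasmid. Each hairpin is named for LMO2, a LIM-domain cofactor of transcription factors. Per the labels, each extraction used 200000 cells. The labels name no group with a hairpin against an unrelated sequence, and they do not say that the libraries of a group came from separate cultures, so p-values measure the spread between these samples only.

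Bone morphogenetic proteins (BMPs) bind receptor kinases that phosphorylate SMAD1, SMAD5 and SMAD9, while TGF-beta and activins act through SMAD2 and SMAD3, and both classes pair with SMAD4 to reach their target genes. The ID genes are classical BMP targets. ID proteins have a helix-loop-helix domain but no DNA-binding region, so they hold E proteins (TCF3, TCF4 and TCF12) in dimers that cannot bind the E-box, the short DNA motif of that family. SMAD6, SMAD7 and BAMBI are induced by the pathway and act back on it at the receptors, and SKIL is a nuclear corepressor of SMADs. LMO2 itself bridges LDB1 to dimers of an E protein with TAL1 in blood cells.

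Library totals lay between 15494486 and 23069456 estimated counts, and the members held between 85 and 4787 counts per library. Abundance is given as CPM, the count scaled to the TMM-adjusted library total. The libraries carried markers known for this line, with EGFR at 4784 to 7937 CPM and KRT5 at 2483 to 3642 CPM. Other basal keratins on the same marker list were lower: KRT17 at 691 to 950 CPM, KRT14 at 12.7 to 25.1 CPM and KRT6A at 8.92 to 25.3 CPM. PGR was at 0 in all 9 libraries, and ESR1 lay between 2.47 and 6.10 CPM. Control replicate 1 stood apart: its counts differed from those of control replicates 2 and 3 by a chi-square of 27.1 and 18.3 per gene, against 6.18 between replicates 2 and 3. The called changes of the 10 genes are therefore also given without it.

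LMO2, the target of both hairpins, checks the labels. It held 4, 35 and 19 counts in control replicates 1 to 3, 2, 1 and 6 counts in shLMO2-1, and 1, 4 and 3 counts in shLMO2-2. Its fitted log2 fold change was −2.44 (SE 0.813, adjusted p = 0.0907) in shLMO2-1 and −3.02 (SE 0.819, adjusted p = 0.0441) in shLMO2-2, by edgeR's quasi-likelihood test with Benjamini-Hochberg adjustment. Control replicate 1 held fewer LMO2 counts than shLMO2-1 replicate 3, so those groups overlapped. The shLMO2-2 call was lost without control replicate 2 (−2.32, adjusted p = 0.138) or 3 (−3.03, 0.103), shLMO2-1 replicate 1 (−3.02, 0.062) or 2 (−3.02, 0.0625), or shLMO2-2 replicate 1 (−2.63, 0.132), 2 (−3.44, 0.102) or 3 (−3.11, 0.127). The shLMO2-2 call was also lost with limma-voom (−2.67, adjusted p = 0.0928) and with only the groups compared (−3.03, 0.062). The shLMO2-1 change passed without control replicate 1 (−2.90, 0.0268).

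Among the 10 genes, ID4, SMAD6 and BAMBI were higher than control in cells with shLMO2-1, and ID4 differed between the hairpins. Counted together, 3 of 10 members were called in shLMO2-1 at an adjusted p under 0.05, all higher, where 8.42% of all tested genes were called in either direction and 4.54% higher. Because the members were chosen with earlier results known, their shares here are a description. In shLMO2-2, 0 of 10 were called by edgeR, where 8.97% of all tested genes were. At an unadjusted p under 0.05 there were 3 in shLMO2-2, and DESeq2 and limma-voom also called 0. In the mean of both hairpins 2 of 10 were called, both higher, where 12.4% of all tested genes were called and 6.47% higher. Between the hairpins 1 of 10 was called (ID4, lower in shLMO2-2), against 0.768% of all tested genes in either direction and 0.422% lower. All libraries of shLMO2-1 lay above control for 3 members (28.3% of tested genes did not overlap, and 14% lay above), and all libraries of shLMO2-2 lay below control for 1 member, ID4 (29.9% and 14.5%). Between the hairpins, 1 member was higher and 2 were lower in shLMO2-2 without overlap (18.1% of tested genes, 8.97% higher and 9.12% lower), so separation of libraries was common in this table. Alternative settings named below keep the threshold of 0.05. At an adjusted p under 0.01, the difference in ID4 between the hairpins was the 1 member call that passed, and the calls of ID4, SMAD6 and BAMBI against control did not. The median log2 fold change of the members was 0.13 in shLMO2-1, 0.08 in shLMO2-2 and −0.06 between the hairpins, beside 0.00091, −0.00024 and −0.00061 over all tested genes. The hairpins share the control libraries, so their values against control are not independent of each other. In bulk RNA, fewer cells of a kind and less RNA per cell cannot be told apart.

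The promoters of the 3 members that were called in a hairpin are shown because the motifs searched lie at different places in them. The windows come from RefSeq on GRCh38.p14, end at the base before the annotated start, and were matched for all 10 members. Capitals mark matches to GGCGCC (a GC-rich element reported for BMP SMADs), CANNTG (the E-box) or GTCTAGAC (a palindrome of the SMAD box). Each motif reads the same on both strands, no 2 matches overlap in these windows, and GTCTAGAC was added after the SMAD6 sequence was seen. The ID4 window is chr6:19837120-19837369, the SMAD6 window chr15:66701986-66702235 and the BAMBI stretch chr10:28677271-28677370, all on the plus strand. Distances are counted from the RefSeq start. BAMBI is cut to its first 100 bases, which hold all its matches, because GENCODE 29 starts the gene within the window, and the end of the printed stretch lies inside the gene as that annotation draws it.
ID4: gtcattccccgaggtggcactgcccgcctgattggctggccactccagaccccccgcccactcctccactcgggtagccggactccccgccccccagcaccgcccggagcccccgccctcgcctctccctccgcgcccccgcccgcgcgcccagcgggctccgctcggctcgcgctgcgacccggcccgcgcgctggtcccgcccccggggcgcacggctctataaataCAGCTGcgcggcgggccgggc
SMAD6: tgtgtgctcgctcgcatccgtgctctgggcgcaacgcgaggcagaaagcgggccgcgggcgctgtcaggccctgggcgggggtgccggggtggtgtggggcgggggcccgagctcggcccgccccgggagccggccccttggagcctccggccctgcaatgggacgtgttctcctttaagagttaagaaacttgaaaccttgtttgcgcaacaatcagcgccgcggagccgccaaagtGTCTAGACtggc
BAMBI: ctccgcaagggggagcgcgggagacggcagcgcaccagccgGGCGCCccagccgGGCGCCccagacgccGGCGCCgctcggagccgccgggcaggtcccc
The SMAD6 window also ends inside the first exon of GENCODE 29, and its GTCTAGAC and the last GGCGCC of BAMBI straddle the start in that annotation. The ID4 window held 1 E-box, 21 bases before the start, and none of the other motifs. The SMAD6 window held 1 GTCTAGAC, 12 bases before the start. The BAMBI window held 3 copies of GGCGCC, at 209, 196 and 181 bases before the start, and no E-box. ID1 and ID3 held none of these motifs, ID2 held an E-box and SKIL held GGCGCC. The ID2 and ID3 windows lie inside the genes as GENCODE 29 draws them. Of the members with several RefSeq starts, SMAD7 held an E-box at 2 of 3, SMAD1 an E-box at 3 of 5 and GGCGCC at 2 of 5, and SMAD3 an E-box at 4 of 5 and GGCGCC at 1 of 5. Over 35116 RefSeq promoter windows of the same length, 61.8% held CANNTG, 16.4% held GGCGCC and 0.182% (64 windows) held GTCTAGAC. An E-box is thus common and GTCTAGAC is rare. GTCTAGAC has 8 letters and was added after its match in SMAD6 was seen, so its rarity does not set SMAD6 apart. A match describes letters and is no evidence of binding.

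Compared between genes per kilobase of annotated exon (overlapping exons merged), the members spanned a wide range of levels in control cells. ID3 and ID4 stood at the top, with 111 ± 10.7 and 98.9 ± 2.77 CPM per kb (SD, n = 3), and their control libraries overlapped (100.3 to 121.8 for ID3, 97.2 to 102.1 for ID4). SMAD1 (13.7 ± 1.42) and BAMBI (13.3 ± 1.24) followed and overlapped. SMAD3 (9.11 ± 1.60), ID2 (8.30 ± 1.18) and SKIL (8.15 ± 1.25) came next and overlapped. ID1 (5.95 ± 1.72) lay below the lowest SKIL library and overlapped SMAD6 (3.80 ± 0.522). SMAD7 was lowest, at 1.98 ± 0.239 CPM per kb, and did not overlap SMAD6. ID1, often the leading BMP target in other cells, was thus the scarcest ID transcript in the control libraries.

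**Figure D1:**
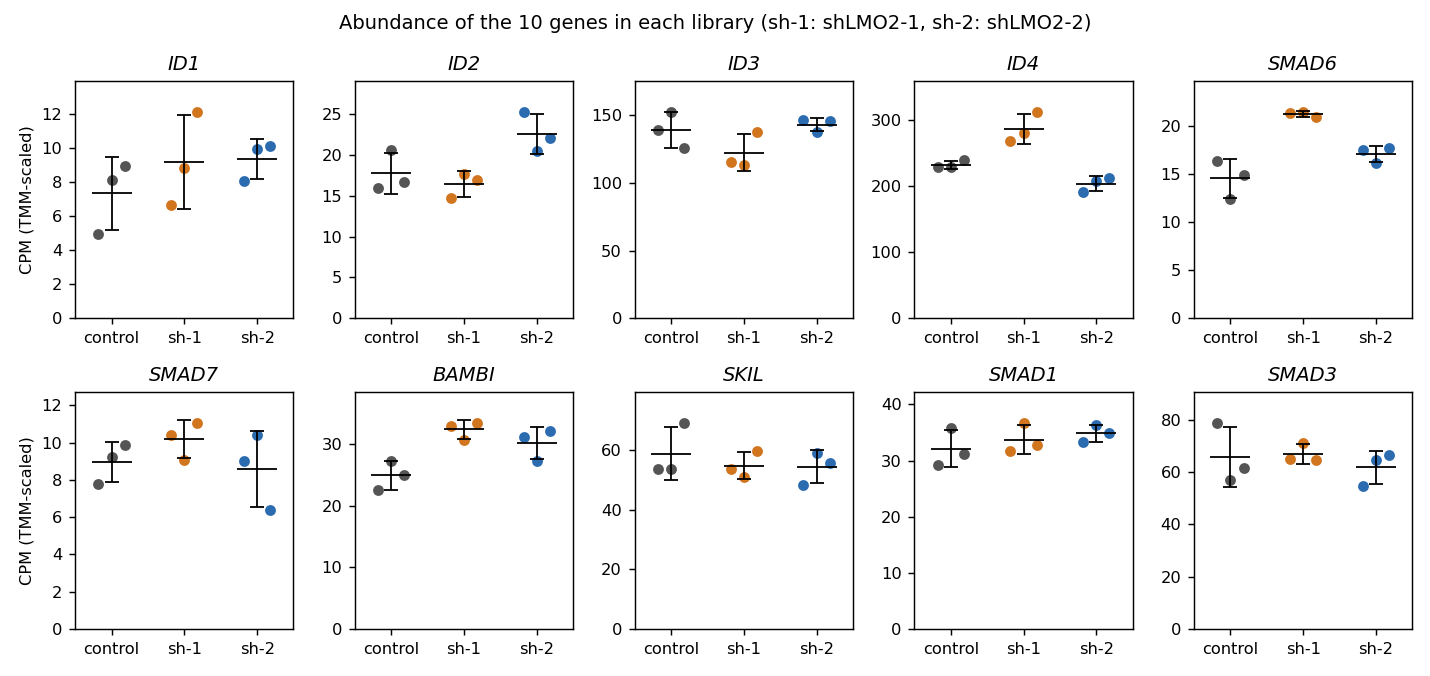
Abundance (CPM, TMM-scaled, linear axis from 0) of each of the 10 genes in the 9 libraries; points are libraries, horizontal bars are group means and error bars are SD (n = 3). ID4 separates all 3 groups (228 to 239, 267 to 312 and 191 to 212 CPM), SMAD6 and BAMBI are higher in shLMO2-1 than in every control, and the other members overlap the control libraries.

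ID4, the most abundant member by CPM, rose with shLMO2-1 and differed between the hairpins. ID4 lies on chromosome 6 at 19837386-19840684 (plus strand, GENCODE 29, GRCh38). It measured 228, 228 and 239 CPM in control replicates 1 to 3. It measured 267, 280.5 and 312 CPM in shLMO2-1, and 191, 207 and 212 CPM in shLMO2-2. All 3 shLMO2-1 libraries lay above all 3 controls and all 3 shLMO2-2 libraries lay below them, so no groups overlapped. ID4 rose by 23.5% in shLMO2-1 (log2 fold change 0.31, SE 0.0696, adjusted p = 0.0229). Its value in shLMO2-2 differed from control by −12.2% (log2 fold change −0.19, SE 0.0696, adjusted p = 0.119), which did not pass, though it did when scaled to total counts alone (−0.24, adjusted p = 0.0351). The hairpins differed from each other by −0.49 (SE 0.0696, adjusted p = 0.00752), a change of −28.96% from shLMO2-1 to shLMO2-2. The antisense neighbour AL022068.1 overlaps ID4 but reached at most 20 counts in a library.

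The difference in ID4 between the hairpins was called in 18 of 18 alternative settings, with log2 values from −0.54 to −0.43 and adjusted p from 5.7e-08 to 0.0436, and was −0.49 without control replicate 1. The rise against control was less firm. It was called in 13 of 18 settings and lost without control replicate 2 (0.29, adjusted p = 0.0614) or 3 (0.33, 0.0548), or without shLMO2-1 replicate 2 (0.32, 0.064) or 3 (0.24, 0.0825). The rise was also lost with only the groups compared (0.30, 0.0517). Without control replicate 1 it was 0.29 and still called. With both hairpins averaged, ID4 differed from control by 0.06 (adjusted p = 0.578).

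ID2, ID3 and ID1 did not pass in any of the 4 comparisons. ID2, known in mammary tissue for its part in differentiation, measured 15.9, 20.7 and 16.7 CPM in control, 14.7, 17.7 and 17.0 CPM in shLMO2-1, and 25.3, 20.5 and 22.1 CPM in shLMO2-2. All shLMO2-2 libraries lay above all shLMO2-1 libraries, while control replicate 2 fell within the shLMO2-2 range. The log2 fold change of ID2 was 0.35 (SE 0.127, adjusted p = 0.115) in shLMO2-2, −0.11 (SE 0.13, adjusted p = 0.658) in shLMO2-1, and 0.46 (SE 0.128, adjusted p = 0.173) between the hairpins. ID2 and ID4 thus had opposite signs between the hairpins, and only the ID4 difference passed. ID3 measured 139, 152 and 126 CPM in control, 115, 114 and 138 CPM in shLMO2-1, and 146, 137 and 145 CPM in shLMO2-2. Its log2 fold change was −0.19 (SE 0.0910, adjusted p = 0.241) in shLMO2-1 and 0.04 (SE 0.0905, adjusted p = 0.822) in shLMO2-2. ID1 measured 4.93, 8.15 and 8.93 CPM in control, 6.64, 8.85 and 12.1 CPM in shLMO2-1, and 8.05, 9.93 and 10.2 CPM in shLMO2-2. Its log2 fold changes of 0.32 (SE 0.249, adjusted p = 0.482) and 0.35 (SE 0.245, adjusted p = 0.418) carried the widest error of the 10 genes, and control replicate 1 was the lowest library.

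Per kilobase, the sum of the 4 ID genes overlapped between the groups while its makeup differed. The sum lay between 217 and 235 CPM per kb in control, between 219 and 261 in shLMO2-1 and between 216 and 225 in shLMO2-2, so the groups overlapped. ID4 made up 41.4% to 47.0% of that sum in control, 51.0% to 53.0% in shLMO2-1 and 37.7% to 40.9% in shLMO2-2. ID3 made up 46.1% to 51.7%, 40.2% to 42.2% and 50.9% to 53.9% in the same order. ID4 was thus the leading ID transcript in shLMO2-1 libraries and ID3 in shLMO2-2 libraries, a description for which no test was run.

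Of 6 tested genes on the list of E proteins and their partners, 1 was called in shLMO2-1 (TCF3) and 2 in shLMO2-2 (TCF3 and LMO2). Of all tested genes, 8.42% and 8.97% were called. Of the E proteins that ID proteins bind, TCF3 (the gene of E12 and E47) was the only one measured above a few counts. TCF12 reached at most 1 count and TCF4 at most 2 counts in any library, and neither was tested. TCF3 measured 196, 200.1 and 207 CPM in control, 225, 239.6 and 230 CPM in shLMO2-1, and 163, 167 and 159 CPM in shLMO2-2. As with ID4, every shLMO2-1 library lay above and every shLMO2-2 library below the controls. TCF3 fell in shLMO2-2 (log2 fold change −0.30, SE 0.0552, adjusted p = 0.00821) and was −0.51 (SE 0.0553, adjusted p = 0.00154) lower there than in shLMO2-1, both called in 18 of 18 alternatives. Its rise in shLMO2-1 (0.20, SE 0.0552, adjusted p = 0.0456) was called in 5 of 18 alternatives, did not pass at a threshold of 0.01 and was lost without any 1 of the 9 libraries, with values from 0.17 (adjusted p = 0.166, without shLMO2-1 replicate 2) to 0.22. The ratio of summed ID to summed E-protein CPM per kb was 5.94 to 6.66 in control, 5.34 to 6.43 in shLMO2-1 and 7.33 to 8.03 in shLMO2-2. TCF3 made up almost all of the E-protein sum and the ID sums overlapped, so the higher ratio in shLMO2-2 mostly restates the lower TCF3 there.

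**Figure D2:**
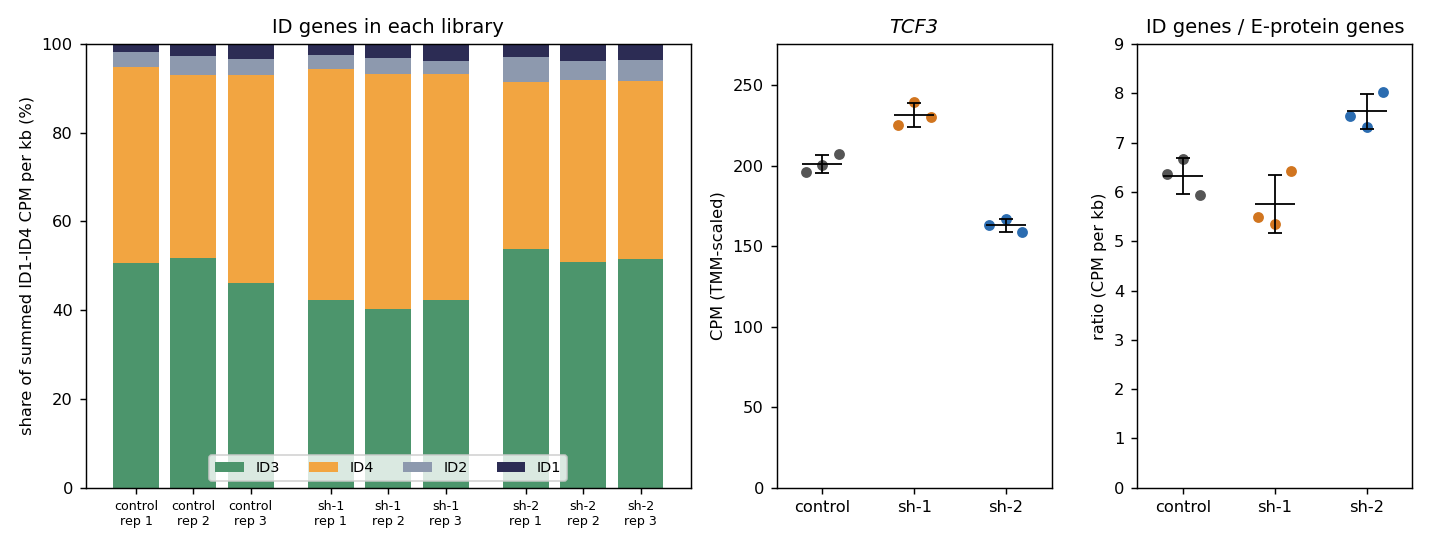
Left, the share of each ID gene in the summed CPM per kb of ID1 to ID4 in each library (%); middle, TCF3 (CPM); right, the ratio of summed ID to summed E-protein CPM per kb, with points for libraries, horizontal bars for means and error bars for SD (n = 3). The ID4 share is highest in shLMO2-1 (51.0% to 53.0%), and shLMO2-2 has the lowest TCF3 (159 to 167 CPM) and the highest ratio (7.33 to 8.03).

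SMAD6, an inhibitory SMAD that acts chiefly on BMP signalling, showed the largest rise among the 10 genes. SMAD6 lies on chromosome 15 at 66702228-66782848 (plus strand, GENCODE 29, GRCh38). It measured 16.3, 12.4 and 14.96 CPM in control, 21.4, 21.5 and 20.97 CPM in shLMO2-1, and 17.5, 16.2 and 17.7 CPM in shLMO2-2. The shLMO2-1 libraries lay close together and above all other libraries, while shLMO2-2 replicate 2 lay just below control replicate 1. SMAD6 rose by 46.3% in shLMO2-1 (log2 fold change 0.55, SE 0.110, adjusted p = 0.0128). In shLMO2-2 the value was 0.24 (SE 0.110, adjusted p = 0.211), and the difference between the hairpins, −0.31 (SE 0.108, adjusted p = 0.303), did not pass although those libraries did not overlap. The shLMO2-1 call held in 17 of 18 alternatives, was lost without shLMO2-1 replicate 2 (0.54, adjusted p = 0.054), and was 0.63 without control replicate 1.

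BAMBI, a receptor-like protein without a kinase domain that blocks receptor complexes, rose with shLMO2-1. It lies on chromosome 10 at 28677342-28682939 (plus strand, GENCODE 29, GRCh38) and overlaps no other annotated gene. It measured 22.6, 27.3 and 25.0 CPM in control, 33.0, 30.6 and 33.5 CPM in shLMO2-1, and 31.1, 27.2 and 32.1 CPM in shLMO2-2. All shLMO2-1 libraries lay above the controls, and shLMO2-2 replicate 2 was level with control replicate 2. BAMBI rose by 29.6% in shLMO2-1 (log2 fold change 0.37, SE 0.0982, adjusted p = 0.0391) and measured 0.27 (SE 0.0975, adjusted p = 0.109) in shLMO2-2. The shLMO2-1 call was lost without control replicate 1 (0.30, adjusted p = 0.078) or 3 (0.37, 0.107), shLMO2-1 replicate 1 (0.36, 0.109), 2 (0.41, 0.0782) or 3 (0.35, 0.121), or shLMO2-2 replicate 1 (0.37, 0.057) or 3 (0.37, 0.052). That call was also lost with only the groups compared (0.37, 0.0702).

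When both hairpins were averaged, SMAD6 (0.39, SE 0.0966, adjusted p = 0.0240) and BAMBI (0.32, SE 0.0857, adjusted p = 0.0323) were the 2 members called. Without control replicate 1, SMAD6 was 0.48 and still called. The SMAD6 call was lost without control replicate 2 (0.29, adjusted p = 0.0786) or 3 (0.41, 0.0685), shLMO2-1 replicate 2 (0.38, 0.0556), or shLMO2-2 replicate 1 (0.38, 0.0503) or 3 (0.38, 0.0526). The BAMBI call was lost without control replicate 1 (0.25, adjusted p = 0.0923) or 3 (0.32, 0.0993), any 1 of the shLMO2-1 libraries (0.31 to 0.34, 0.0506 to 0.0644), or shLMO2-2 replicate 1 (0.31, 0.0643) or 3 (0.29, 0.0687).

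The other inhibitors did not pass in any comparison. SMAD7, which blocks both BMP and TGF-beta receptors, measured 7.77, 9.23 and 9.89 CPM in control, 10.4, 9.08 and 11.1 CPM in shLMO2-1, and 9.00, 10.4 and 6.38 CPM in shLMO2-2. The fitted change of SMAD7 was 0.18 (SE 0.181, adjusted p = 0.589) in shLMO2-1 and −0.06 (SE 0.179, adjusted p = 0.868) in shLMO2-2, and all 3 groups overlapped. SKIL measured 53.7, 53.6 and 69.3 CPM in control, 53.5, 51.0 and 59.9 CPM in shLMO2-1, and 48.4, 59.2 and 55.8 CPM in shLMO2-2. The fitted change of SKIL was −0.10 (SE 0.116, adjusted p = 0.637) in shLMO2-1 and −0.11 (SE 0.115, adjusted p = 0.589) in shLMO2-2, and control replicate 3 was the highest library.

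The signal-carrying SMADs showed no called difference either. SMAD1, which carries the BMP signal, measured 29.3, 35.8 and 31.2 CPM in control, 31.8, 36.7 and 32.7 CPM in shLMO2-1, and 33.3, 36.3 and 34.9 CPM in shLMO2-2. The fitted change of SMAD1 was 0.07 (SE 0.0957, adjusted p = 0.706) in shLMO2-1 and 0.12 (SE 0.0947, adjusted p = 0.491) in shLMO2-2. SMAD3, which carries TGF-beta and activin signals, measured 79.0, 56.9 and 61.7 CPM in control, 65.0, 71.3 and 64.7 CPM in shLMO2-1, and 54.8, 64.8 and 66.4 CPM in shLMO2-2. For SMAD3 the log2 fold change was 0.03 (SE 0.119, adjusted p = 0.927) in shLMO2-1 and −0.09 (SE 0.118, adjusted p = 0.700) in shLMO2-2, and control replicate 1 was its highest library. SMAD5, the other BMP SMAD measured in depth, was at −0.06 (SE 0.107, adjusted p = 0.798) in shLMO2-1 and −0.15 (SE 0.107, adjusted p = 0.441) in shLMO2-2.

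SMAD4, the partner of both SMAD classes, reached at most 3 counts in a library and was not tested. MDA-MB-468 is known to lack SMAD4 through a homozygous deletion, and that background is common to all 3 groups. Of the genes nearest to it, chosen after its counts were seen, ELAC1 reached at most 6 counts and AC091551.1 at most 4, DCC was at 0, and MEX3C held 1066 to 1384 counts. SMAD9 reached at most 2 counts, so of the SMADs that carry the BMP signal, SMAD1 and SMAD5 were the 2 measured above a few counts.

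**Figure D3:**
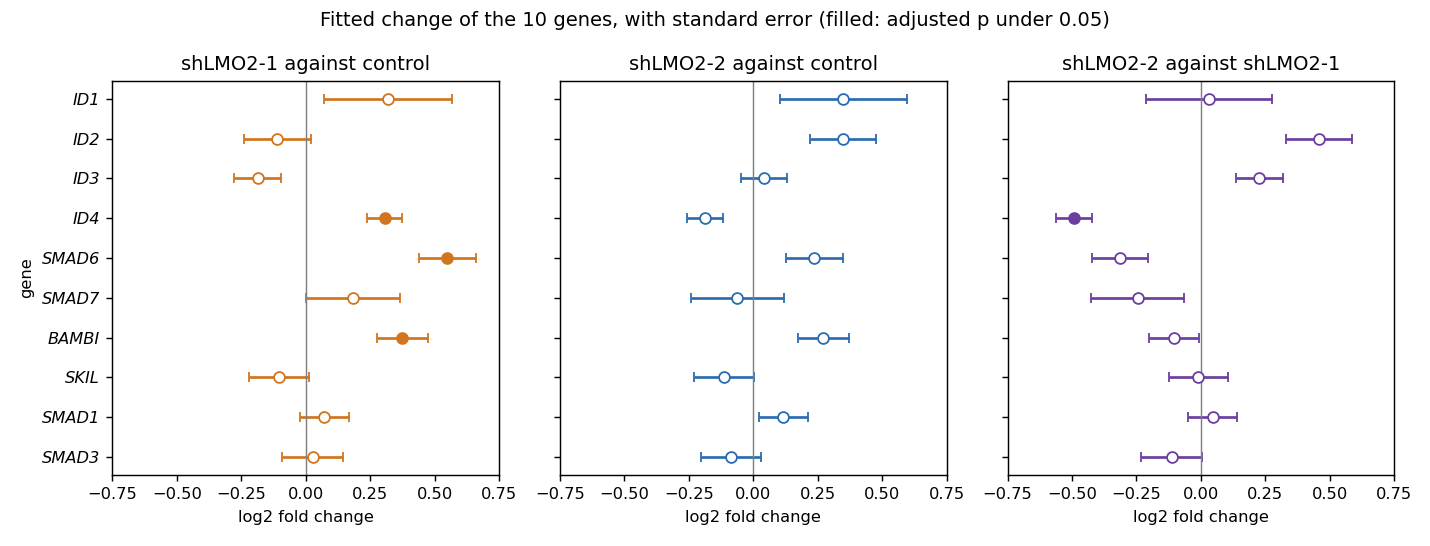
Fitted log2 fold change of each of the 10 genes (points) with its standard error (bars) in shLMO2-1 and shLMO2-2 against control and in shLMO2-2 against shLMO2-1; filled points have an adjusted p under 0.05. ID4, SMAD6 and BAMBI are filled in shLMO2-1 (0.31, 0.55 and 0.37), none is filled in shLMO2-2, and ID4 alone is filled between the hairpins (−0.49).

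Outside the members, 98 genes of the pathway were listed in 6 groups, and 73 of these were tested. shLMO2-1 changed 12 of 73 (5 higher, 7 lower), or 16.4%, beside 8.42% of all tested genes (4.54% higher, 3.88% lower). shLMO2-2 changed 14 of 73 (3 higher, 11 lower), or 19.2%, beside 8.97% (4.94% higher, 4.04% lower), and LMO2 itself is among those 14. Their median log2 fold changes were 0.04 and −0.04. These lists were chosen with earlier results known, so their shares are a description. The changes of BMP2, INHBA, ENG, NEO1 and CTGF against control were called for both hairpins in 18 of 18 alternatives each, and also passed at a threshold of 0.01.

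Among the ligands, BMP2 fell and INHBA rose under both hairpins. BMP2 is one of the BMPs, and its link to the ID genes in these cells was not tested. BMP2 measured 12.8, 11.4 and 9.73 CPM in control, 2.14, 3.05 and 1.85 CPM in shLMO2-1, and 3.52, 4.64 and 4.22 CPM in shLMO2-2. It fell in both, by log2 fold changes of −2.26 (SE 0.208, adjusted p = 0.000169) in shLMO2-1 and −1.45 (SE 0.191, adjusted p = 0.00168) in shLMO2-2. INHBA, whose product forms activin A, measured 11.1, 8.10 and 9.99 CPM in control, 28.5, 22.2 and 24.7 CPM in shLMO2-1, and 24.3, 23.7 and 24.9 CPM in shLMO2-2. It rose by 1.37 (SE 0.131, adjusted p = 0.000219) in shLMO2-1 and 1.32 (SE 0.13, adjusted p = 0.000273) in shLMO2-2. BMP7, another BMP, was at 0.49 (SE 0.164, adjusted p = 0.0911) in shLMO2-1 and rose by 0.65 (SE 0.162, adjusted p = 0.0335) in shLMO2-2. The BMP7 call was lost without control replicate 1 (0.51, adjusted p = 0.0707) or 2 (0.64, 0.0686), shLMO2-1 replicate 2 (0.64, 0.0558), or shLMO2-2 replicate 2 (0.57, 0.12) or 3 (0.58, 0.116). Of 10 tested ligands, 2 were called in shLMO2-1 and 3 in shLMO2-2, beside 8.42% and 8.97% of all tested genes.

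Of 15 tested receptor and co-receptor genes, 3 were called in shLMO2-1 and 2 in shLMO2-2, beside 8.42% and 8.97% of all tested genes. ENG, a co-receptor best known from endothelium, measured 19.7, 20.7 and 25.1 CPM in control, 34.8, 37.3 and 31.1 CPM in shLMO2-1, and 35.0, 34.1 and 33.0 CPM in shLMO2-2, and every hairpin library lay above the controls. ENG rose by 0.66 (SE 0.107, adjusted p = 0.00478) in shLMO2-1 and 0.64 (SE 0.106, adjusted p = 0.00525) in shLMO2-2. NEO1, the receptor of the repulsive guidance molecules that act as BMP co-receptors, fell to −0.76 (SE 0.105, adjusted p = 0.00176) in shLMO2-1 and −0.56 (SE 0.103, adjusted p = 0.00865) in shLMO2-2. RGMA, such a guidance molecule, fell by 0.59 (SE 0.116, adjusted p = 0.0120) in shLMO2-1 and was at −0.38 (SE 0.113, adjusted p = 0.0615) in shLMO2-2. Its call was lost without control replicate 3 (−0.52, adjusted p = 0.0502) or shLMO2-1 replicate 2 (−0.55, 0.0536), and its shLMO2-2 value passed without control replicate 1 (−0.44, 0.0492).

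Of 8 tested extracellular antagonists, 0 were called in shLMO2-1 by edgeR and 2 in shLMO2-2, beside 8.42% and 8.97% of all tested genes. In shLMO2-1, 2 had an unadjusted p under 0.05, DESeq2 called 1 (FSTL1) and limma-voom 0. SOSTDC1, a secreted BMP antagonist, held 19, 24 and 22 counts in control, 16, 13 and 15 in shLMO2-1, and 2, 0 and 1 in shLMO2-2. Scaled to library totals, control exceeded shLMO2-2 by a ratio of 26.0 (95% exact interval 8.51 to 129, counting error only), and the fitted change depends on the prior count. Its difference between the hairpins (−4.11, SE 0.589, adjusted p = 0.00791) was lost without shLMO2-2 replicate 3 (−4.11, adjusted p = 0.0523). FSTL1, a follistatin-like secreted protein, fell by 0.87 (SE 0.209, adjusted p = 0.0290) in shLMO2-2 and was at −0.75 (SE 0.212, adjusted p = 0.0543) in shLMO2-1. The FSTL1 call was lost without any 1 control or shLMO2-2 library (−0.95 to −0.81, adjusted p = 0.0523 to 0.0973).

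Of 19 tested SMADs and SMAD regulators, 3 were called in shLMO2-1 (2 higher, 1 lower) and 1 in shLMO2-2. These shares were 15.8% and 5.26%, beside 8.42% and 8.97% of all tested genes. The corepressors SKI (0.30, SE 0.0675, adjusted p = 0.0221) and TGIF2 (0.51, SE 0.105, adjusted p = 0.0147) rose in shLMO2-1, where SKIL, a relative of SKI, did not pass. NEDD4L, a ubiquitin ligase for activated SMADs, fell in shLMO2-2 (−0.34, SE 0.0875, adjusted p = 0.0372). SKI lost its call without control replicate 2 (0.31, 0.0503) or 3 (0.28, 0.0828) or shLMO2-1 replicate 2 (0.23, 0.0983), and TGIF2 without control replicate 3 (0.48, 0.0591) or shLMO2-1 replicate 1 (0.47, 0.0579) or 2 (0.49, 0.0652). NEDD4L lost it without shLMO2-1 replicate 1 (−0.34, 0.0551) or 2 (−0.35, 0.063), or any 1 shLMO2-2 library (−0.37 to −0.34, 0.0763 to 0.118).

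Among 15 other tested SMAD-responsive genes, 3 were called by edgeR in shLMO2-1 and 4 in shLMO2-2, all lower. In shLMO2-1, DESeq2 called 4 and limma-voom 3. In shLMO2-2, DESeq2 and limma-voom each called 5. The gene they added there was higher than control (edgeR log2 fold change 1.14, SE 0.325, adjusted p = 0.0529). Of all tested genes, 8.42% and 8.97% were called in either direction, and 3.88% and 4.04% lower. CTGF, a matricellular protein that also responds to other pathways, measured 35.0, 28.3 and 27.2 CPM in control, 12.9, 14.2 and 13.5 CPM in shLMO2-1, and 7.91, 8.49 and 8.58 CPM in shLMO2-2. CTGF fell in both, with −1.16 (SE 0.114, adjusted p = 0.000258) in shLMO2-1 and −1.85 (SE 0.116, adjusted p = 1.66e-05) in shLMO2-2, and the hairpins differed by −0.70 (SE 0.119, adjusted p = 0.0247). That difference was lost without any 1 of the 6 hairpin libraries (−0.73 to −0.66, adjusted p = 0.0667 to 0.142). CDKN2B, a cell cycle inhibitor induced by TGF-beta, fell in both (−0.43, SE 0.0918, adjusted p = 0.0172, and −0.45, SE 0.0911, adjusted p = 0.0143). TSC22D1, another TGF-beta-induced gene, did so too (−0.29, SE 0.0776, adjusted p = 0.0399, and −0.33, SE 0.0773, adjusted p = 0.0252). TGFBI, a TGF-beta-induced matrix protein, fell by 0.41 (SE 0.108, adjusted p = 0.0411) in shLMO2-2. CDKN2B lost both calls without control replicate 3 (−0.38, 0.0708, and −0.39, 0.0604), and the shLMO2-1 call also without shLMO2-1 replicate 1 (−0.39, 0.0677) or 2 (−0.43, 0.0637). TSC22D1 lost the shLMO2-1 call without any 1 library except shLMO2-2 replicate 3 (−0.35 to −0.24, 0.0508 to 0.134), and the shLMO2-2 call without shLMO2-2 replicate 1 (−0.31, 0.0796) or 2 (−0.32, 0.092). TGFBI lost its call without any 1 control (−0.43 to −0.38, 0.0513 to 0.1) or shLMO2-2 library (−0.45 to −0.35, 0.0815 to 0.121), or shLMO2-1 replicate 1 (−0.40, 0.0613). In shLMO2-1, CTGF, CDKN2B and TSC22D1 fell while SMAD6 and BAMBI rose.

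**Figure D4:**
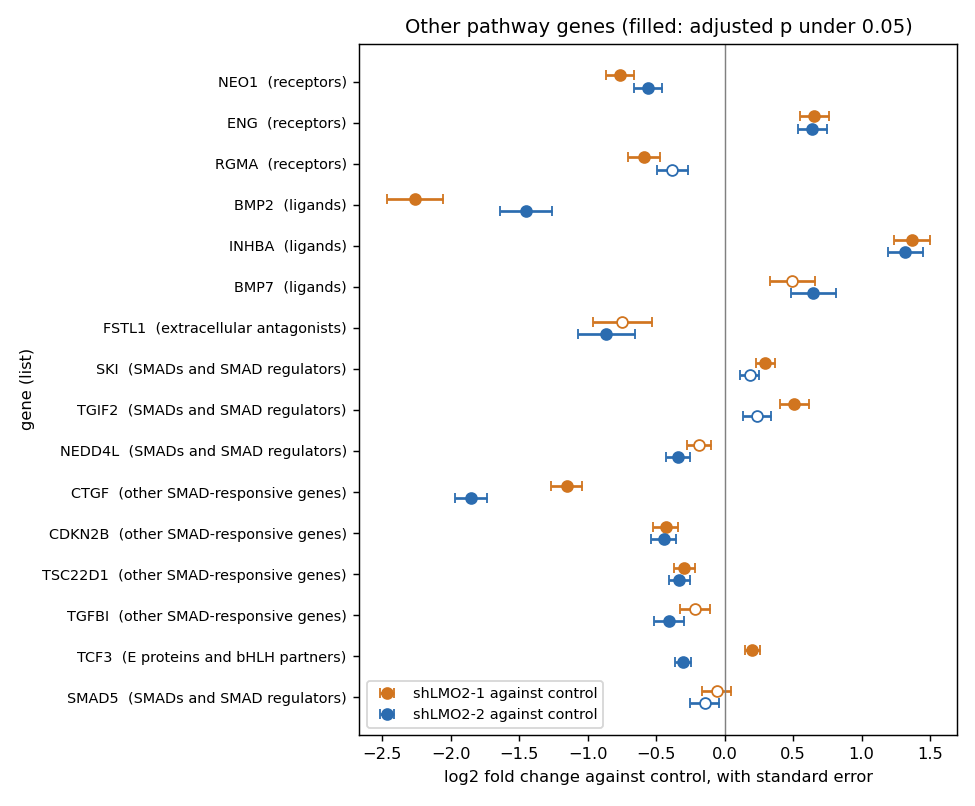
Log2 fold change against control of the pathway genes named here that were tested, with standard error, in shLMO2-1 and shLMO2-2; filled points have an adjusted p under 0.05, and LMO2 and SOSTDC1, which rest on few counts, are not drawn. Of the genes drawn, BMP2 (−2.26 and −1.45) and CTGF (−1.16 and −1.85) lie farthest to the left and INHBA (1.37 and 1.32) farthest to the right, and TCF3 lies on opposite sides (0.20 and −0.30).

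The genes most like each ID gene over the 9 libraries were found by the Pearson correlation of log2 CPM among 11029 genes of at least 5 CPM, as a description. The libraries share groups and depth. ID4 was most like MCAM (r = 0.965, and 0.830 after removing group means), CTSB (0.960) and NAP1L1 (0.957). MCAM, a cell adhesion molecule, had log2 fold changes of 0.87 in shLMO2-1, −0.20 in shLMO2-2 and −1.07 between the hairpins. By edgeR's quasi-likelihood test the adjusted p was 0.00389, 0.421 and 0.00452 in that order. MCAM was picked for its likeness to ID4 in these same libraries, so the shared signs are no separate result. ID2 was most like SLC22A5 (0.980), LIPA (0.957) and ALDH1B1 (0.952), ID3 like MTX2 (0.979), FDX1 (0.939) and CMC2 (0.927), and ID1 like HNRNPC (0.975), LSM10 (0.974) and EGLN1 (0.971).

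Markers of other cells were measured beside these results. The summed level of 4 endothelial markers, mostly KDR, was 5.48 to 13.0 CPM in control, 12.5 to 17.7 in shLMO2-1 and 8.13 to 10.9 in shLMO2-2, and none of the 4 was at 0 throughout a group. The sum of 4 blood markers was 0.899 to 1.51, 1.99 to 3.69 and 2.74 to 2.88 CPM, with CD3E at 0. The sum of 5 fibroblast markers, mostly COL1A1, was 9.79 to 14.2, 12.4 to 17.1 and 14.3 to 16.5 CPM, with COL3A1 and LUM at 0. A further sum covered 9 markers of this line, with EGFR the largest (4784 to 7937 CPM) and KRT8, KRT18, EPCAM and CDH1 included. That sum was 12694.5 to 13903 CPM in control, 14810.5 to 15760.3 in shLMO2-1 and 14145 to 15734 in shLMO2-2. It was higher in every hairpin library than in every control, and the sum does not tell which markers differed. Library totals were 15494486 to 17638007 in shLMO2-1 and 21726879 to 23069456 in shLMO2-2. The part of these differences in the changes of ID4, SMAD6, BAMBI and the pathway genes was not tested.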

How the data were processed

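RNA from 9 MDA-MB-468 libraries was measured by poly(A)-selected sequencing, per the labels. The authors deposited estimated counts per gene symbol. The submitters' processing notes name Salmon 0.12, DESeq2 1.22.2 and GRCh38.p12 without roles, and the use of strand is not given in the sources used here, so overlapping and antisense genes are uncertain. Counts were rounded and tested with edgeR 4.0.16 (R 4.3.3): TMM scaling, filterByExpr (minimum count 10, minimum total 15) with LMO2 added back, and a quasi-likelihood fit of all 9 libraries in 3 groups. Benjamini-Hochberg adjustment covered all 14709 genes, with calls at an adjusted p under 0.05. Two-sided tests were used throughout, and scripts were tested on simulated data. Per gene, the chi-square between replicate libraries was 4.84 to 27.1 (13122 genes), above the 1 that counting noise gives, so none was counted as a repeat. Positions and exon lengths are GENCODE 29 (GRCh38), by symbol.

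All members and LMO2 are named, with up to 4 genes per list called in a hairpin (lowest p when both hairpins are averaged), and TCF3, TCF4, TCF12, SMAD4, SMAD5 and BMP2. Some listed genes are counted but not reported here by name. Members and lists were chosen with earlier results of these data known. Alternatives were other scalings, other filters, DESeq2 1.42.0, limma-voom (limma 3.58.1), a fit of only the compared groups, a threshold of 0.01, the replicate number as a block, and each library left out.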

Additional observations from a re-analysis of the deposited data

Results flagged for a closer look

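Differences between the hairpins were measured as shLMO2-2 minus shLMO2-1 on the log2 scale. They passed the test for 1 of 10 members and 3 of 73 tested genes of the pathway lists, beside 0.768% of all tested genes. MCAM and CTSB, which were picked for their likeness to ID4, also passed and are not counted here. The member and list genes that passed were ID4 at −0.49 (adjusted p = 0.00752), TCF3 at −0.51 (0.00154), CTGF at −0.70 (0.0247) and SOSTDC1 at −4.11 (0.00791), by edgeR's quasi-likelihood test. ID4 and TCF3 lay above control in shLMO2-1 and below it in shLMO2-2, CTGF fell in both, and SOSTDC1 was called against control in shLMO2-2 and not in shLMO2-1. The CTGF difference lost its call without any 1 hairpin library, and the SOSTDC1 difference without shLMO2-2 replicate 3 (adjusted p = 0.0523).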

How the results depend on the processing

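The direction of ID4, SMAD6 and BAMBI in shLMO2-1, and of ID4 between the hairpins, was kept in every alternative run. Members called in shLMO2-1 numbered 3, against 1 with only the groups compared, 0 at an adjusted p under 0.01 and 0 to 3 with a library left out. In shLMO2-2 there were 0, against 1 (ID4) with total counts alone and 1 (ID4) with a replicate block. In the mean of both hairpins there were 2, against 0 at an adjusted p under 0.01 and 0 to 2 with a library left out, and between the hairpins 1, against 2 with no filter, which added ID2. Other pathway genes called in shLMO2-1 numbered 12, against 19 with no filter, 22 with the replicate block, 5 at an adjusted p under 0.01 and 6 to 14 with a library left out. In shLMO2-2 they numbered 14, against 20 with no filter or with the replicate block, 7 at an adjusted p under 0.01 and 8 to 14 with a library left out, and between the hairpins 3, against 7 with no filter and 1 to 5 with a library left out. Same-numbered libraries correlated above 0.1 in 6 of 9 pairs (−0.063 to 0.296), and since not every pair did, the numbers were not taken to pair the samples. That 13 of 18 best partners bore their own number is a hint from the data, not from the design. With the replicate block, the named values that became calls were ID4 (adjusted p = 0.0351) and RGMA (0.0295) in shLMO2-2, and LMO2 (0.0417), BMP7 (0.00949) and FSTL1 (0.0352) in shLMO2-1. With only the groups compared, the named shLMO2-1 calls lost were ID4 (adjusted p = 0.0517), BAMBI (0.0702), TCF3 (0.106), SKI (0.0692) and TSC22D1 (0.0772). The shLMO2-2 calls lost in that setting were LMO2 (0.062), BMP7 (0.0642), NEDD4L (0.0798) and TGFBI (0.0516).

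Signs turned only for values that were not called. With total counts alone, ID3 in shLMO2-2 went to −0.0077 and SMAD3 in shLMO2-1 to −0.014, and with upper-quartile scaling SKIL between the hairpins went to 0.0011. With a library left out, the log2 fold changes that turned ranged as follows. In shLMO2-1 these were ID2 −0.19 to 0.013, SMAD3 −0.069 to 0.17, SKIL −0.17 to 0.029 and SMAD5 −0.13 to 0.051. In shLMO2-2 these were ID3 −0.028 to 0.11, SMAD7 −0.23 to 0.11, SMAD3 −0.18 to 0.055 and SKIL −0.19 to 0.0199. In the mean of both hairpins these were SMAD7 −0.038 to 0.14, SMAD3 −0.13 to 0.11 and SKIL −0.18 to 0.024. Between the hairpins these were ID1 −0.16 to 0.27, SKIL −0.078 to 0.065, LMO2 −1.002 to 0.45, ENG −0.089 to 0.043, INHBA −0.14 to 0.052, FSTL1 −0.24 to 0.046, CDKN2B −0.091 to 0.069 and TSC22D1 −0.088 to 0.0068. The cause of these turns was not tested, other than that fewer libraries entered the fit.

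With 3 libraries a group, the standard errors of the members in each hairpin against control ran from 0.0696 (ID4) to 0.249 (ID1) on the log2 scale. ID1 (85 to 226 counts) and SMAD7 (134 to 224 counts) had the lowest counts and the widest errors among the members, so changes of the size seen in SMAD6 or BAMBI were less detectable in them. LMO2, SOSTDC1, TCF4, TCF12 and SMAD4 rest on few counts.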
